A study of Mus musculus with 7 samples.

Results

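Gene by gene RNA levels of mouse skin fibroblasts were compared between untreated cells and cells given thapsigargin, with attention to gene families and abundance classes outside the well known stress genes. A gene entered when its estimate had status OK in both libraries, its symbol lay at 1 locus, and its level was FPKM 1 or more in at least 1 library, where FPKM counts fragments against transcript length and library depth. This kept 12043 of 22956 symbols. Of these, 261 had 1 exon in every annotated transcript, 11614 had several exons, and 168 were not matched to the annotation. All cells were primary dermal fibroblasts of female FVB/N mice kept for 8 days in culture. The untreated group had 1 RNA library and the group given thapsigargin for 3 h had 1, both made from total RNA. The labels do not say whether animals were pooled. The series also holds ATF4 and CEBPB immunoprecipitations and bisulfite libraries, of which only the binding peaks are used here, once.

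Thapsigargin blocks the pump that fills the endoplasmic reticulum (ER) with calcium. Unfolded proteins then gather in the ER, the kinase PERK slows translation, and the factors ATF4, ATF6 and XBP1 turn on chaperone and amino acid genes. Fibroblasts spend much of their secretory capacity on collagen and other matrix proteins, which all pass through the ER.

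Change means log2(FPKM + 1) of the treated library minus that of the untreated one, and a gene was called higher or lower when this was 1 or more in size. With 1 library per condition no difference has a replicate check and none has a p-value. Intervals of ratios are 95% intervals from the confidence bounds in the tables, which implied 53827900 and 78869800 fragments, and they cover counting error only. Fibroblast markers were present, with a summed level of FPKM 16341 untreated and 4355 treated over 12 markers, while 0 of 4 endothelial markers reached FPKM 1. Other cell types left RNA too: 7 macrophage markers summed to 1153 and 1089, 8 keratinocyte markers to 28.5 and 1.65, and 6 melanocyte and Schwann cell markers to 34.6 and 4.70. Fewer cells of a type and less RNA per cell cannot be told apart in bulk RNA. Near the entry threshold, 149 genes whose higher level was FPKM 1 to 1.1 had a median change of -0.40, and 143 genes at 0.9 to 1, left out, had -0.34.

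Most genes had a lower level in the treated library, whose values summed to FPKM 254550 against 358030. The median change over all genes was -0.52. Of the 12043 genes, 729 were higher, 6.05% of all, and 3379 were lower, 28.1%. Set against the median of all genes, 1600 were higher, 13.3%, and 1529 lower, 12.7%, a near-even split that centring on these same genes brings about. Scalings not built on that median kept more lower than higher genes, 1877 against 1331 when centred on genes at FPKM 5 or more in both libraries and 2349 against 1623 when both libraries were rescaled to the same sum. That sum was larger than either library's own, so the 1 added before the log weighed less. Adding 0.1 on the authors' scale likewise raised both counts, to 925 higher and 4244 lower. Because of the general decrease, family and class medians are read against -0.52. A second scale, the junction-adjusted change, subtracts the median change of genes whose density of exon junctions (per kb of transcript) is similar, because the change went with that density, as described next. It called 1471 genes higher, 12.4%, and 1175 lower, 9.89%, of 11875, and its median over all genes was 0.03.

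Single-exon genes, which need no splicing, did not share the general decrease. Their median change was 0.08, against -0.53 for multi-exon genes. Of the 261 single-exon genes 56 were higher, 21.5%, and 54 lower, 20.7%. Of the 11614 multi-exon genes 652 were higher, 5.61%, and 3298 lower, 28.4%. Set against the median of all genes, 88 single-exon genes were higher, 33.7%, and 24 lower, 9.2%. The class was mixed: the 214 protein-coding members had a median of 0.03 and 29 pseudogenes 0.07. The 13 small nucleolar RNA genes split into 8 higher and 5 lower, and the FPKM of such very short genes are uncertain. Near-identical copies elsewhere in the genome were found for 39.1% of single-exon genes and 22.9% of multi-exon genes. Among genes without such copies and with under 10% of their exonic bases under another gene, the single-exon median was 0.14 over 128 genes.

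**Figure D1:**
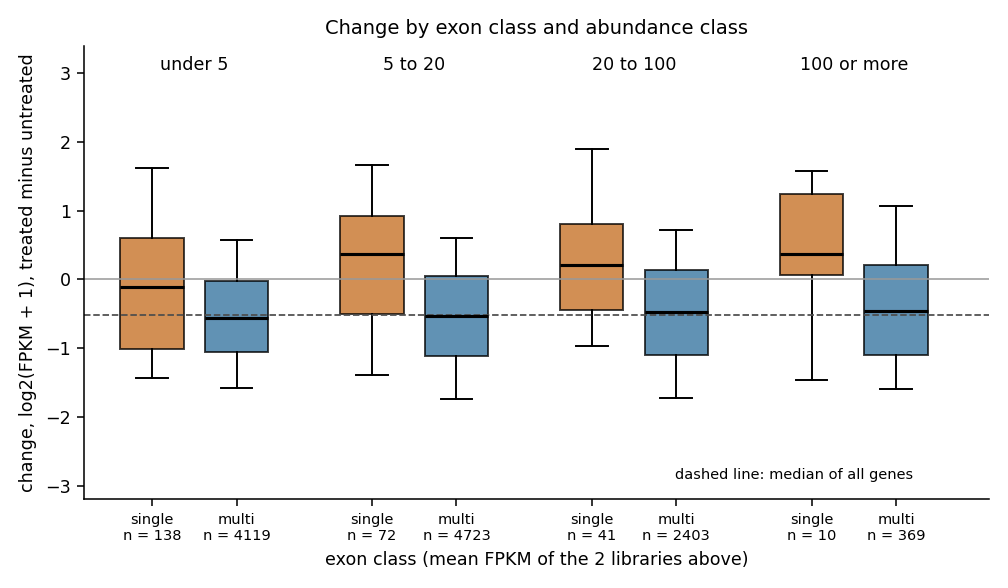
Change of single-exon and multi-exon genes in 4 classes of mean FPKM; boxes give the median and quartiles, whiskers the 10th and 90th percentiles, and the dashed line the median of all genes, -0.52. On the authors' scaling the single-exon medians lie above the multi-exon medians in each class, from -0.10 against -0.57 in the lowest class to 0.37 against -0.46 in the highest.

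Among the single-exon genes named by size of change, Amigo3 encodes an adhesion molecule of neurons and other cells (chromosome 9, 107955490 to 107958032, mm9). Its level was FPKM 2.54 untreated and 17.8 treated, a ratio of 7.03 (6.36 to 7.76). Utp3, a protein of the small ribosomal subunit processome, stood at 26.8 and 102.7, a ratio of 3.84 (3.68 to 3.99). Nog, the secreted BMP antagonist noggin, stood at 2.86 and 12.4, a ratio of 4.32 (3.86 to 4.83). The forkhead factor gene Foxs1 stood at 7.2 and 33.0, the helicase gene Ddx28 at 9.45 and 28.0, and Tmem200b, a membrane protein gene, at 8.77 and 29.9. Each of these 6 genes had a junction-adjusted change above 1. That adjustment moves all single-exon genes alike, their median from 0.08 to 0.10, so it gives no second check here. Single-exon genes that were lower included Gpr27, an orphan G protein-coupled receptor gene, at 5.17 and 0.261, 19.8-fold lower (14 to 27.9). The lectin gene Clec14a stood at 5.29 and 0.531, and Galnt4, an enzyme that starts O-glycosylation, at 5.91 and 1.15. Snora75 and Snora78 were listed at 0 untreated and at 18.3 and 4.23 treated, and Snora7a at 62.9 and then at 0, all of them uncertain as very short genes.

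Among multi-exon genes the change fell off steadily with the density of exon junctions. Its median was -0.09 for 1539 genes with up to 1 junction per kb and -0.54 for 1920 genes with over 3 to 4. At over 6 to 7 junctions per kb the median was -1.19 over 711 genes, and above 8 it was -1.74 over 191 genes. Of the genes with up to 1 junction per kb 12.3% were higher and 12.9% lower, while above 8 the shares were 1.05% and 78.5%. Within abundance classes the median went from -0.10 in single-exon genes to -1.33 in the densest bin for genes under FPKM 5. It went from 0.37 to -1.78 at FPKM 100 or more, where the medians of the bins between do not run in order. There they were -0.32 at up to 1 junction per kb (34 genes), 0.013 at over 1 to 2 (63 genes), -1.01 at over 5 to 6 (34 genes) and -0.62 at over 6 to 7 (13 genes). Genes called higher had a median of 4 exons, 1.62 junctions per kb and a genomic span of 9.87 kb. Genes called lower had 11 exons, 4.36 junctions per kb and a span of 24.9 kb, and the genes in between had 8 exons, 2.59 and 23.4 kb. Median transcript length was 2307 bp in higher genes, 3061 bp in those in between and 2852 bp in lower genes. In span and transcript length the higher genes differed more from those in between than the lower genes did. The cause of this pattern was not tested.

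**Figure D2:**
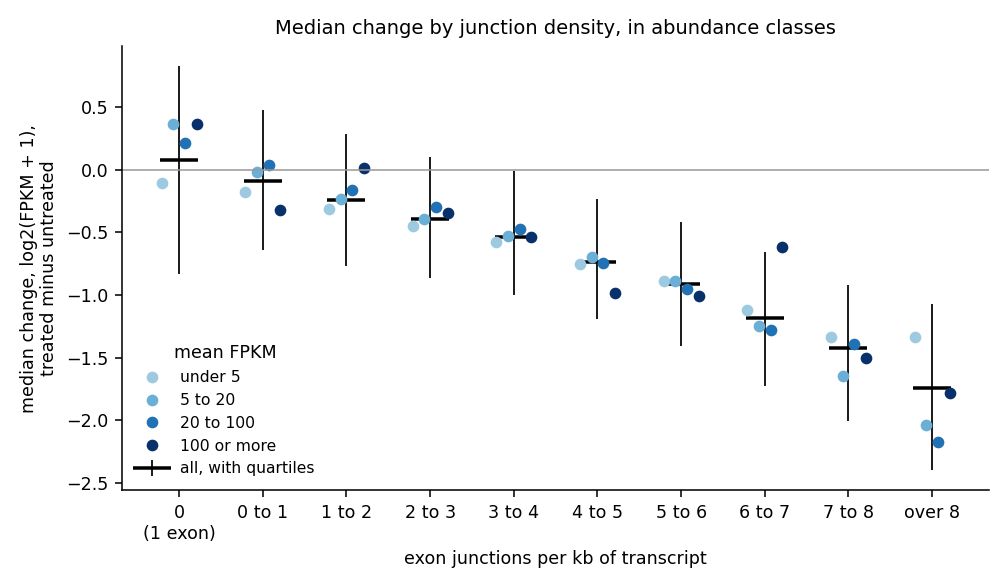
Median change against exon junctions per kb of transcript; black bars give the median and quartiles of all genes in a bin and coloured points the median in each class of mean FPKM. On the authors' scaling the median goes from 0.08 in single-exon genes to -1.74 in genes with over 8 junctions per kb.

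Abundance went with the change less than gene structure did. By the mean level of both libraries, the median change was -0.55 for 4372 genes under FPKM 5, -0.52 for 4825 genes at 5 to 20, -0.46 for 2461 genes at 20 to 100 and -0.44 for 385 genes at 100 or more. The share of genes called higher was 5.65% in the lowest class and 12.2% in the highest, and the share called lower was 27.5% and 28.6%. Classes cut on the level of 1 library gave other values. By the untreated level the lowest class had a median of -0.31 and the highest -0.95, and by the treated level they had -0.74 and 0.13.

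The most abundant genes changed places. The 10 highest genes held 12.5% of the summed FPKM untreated and 9.21% treated, and 4 genes were among the 10 highest in both libraries. Of the 100 highest 58 were shared, and of the 1000 highest 636. The highest untreated entry, the microRNA gene Mir703, was listed at FPKM 14706 and at 0 treated, which is uncertain for so short a gene. Among genes without copies, Sparc, a collagen-binding matrix protein, stood at 4489 and 3281, and Bgn, the proteoglycan biglycan, at 2991 and 3496. Col1a1 (chromosome 11, 94797584 to 94813170), a chain of type I collagen with 51 exons in its longest transcript, stood at 6473 and 884. Its change of -2.87 was -0.96 after junction adjustment, and the other collagen genes at the top did likewise: Col1a2 stood at -2.16 and -0.25, and Col3a1 at -2.41 and -0.51. Postn, which encodes the matrix protein periostin, turned from -0.84 to 0.51. Lgals1, the lectin galectin-1, was lower by both measures, at -1.59 and -0.98. The intermediate filament gene Vim stood at -0.33 and 0.25, and Serpinh1, the collagen chaperone HSP47, at 0.12 and 0.29. Tmsb4x, which encodes the actin-binding thymosin beta 4, stood at -0.59 and -0.21.

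**Figure D3:**
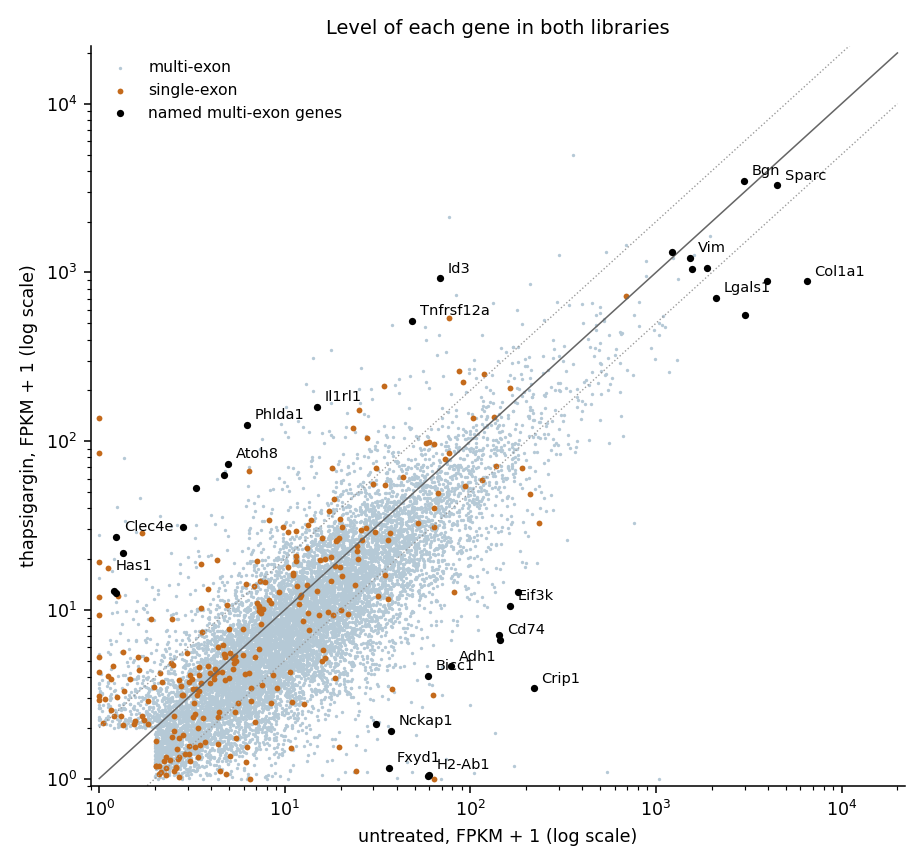
Level of each gene in both libraries as FPKM + 1 on log axes; the solid line marks equal levels, the dotted lines a log2 difference of 1, and the black points the named multi-exon genes. Clec4e, Phlda1 and Id3 lie above the band and Crip1, H2-Ab1 and Col1a1 below it, while Bgn and Sparc lie inside it.

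The named increases of multi-exon genes were the 12 with the largest change outside the textbook list and without copies or overlap. Clec4e (chromosome 6, 123231807 to 123239889), which encodes the macrophage receptor Mincle, had FPKM 0.236 untreated and 26.2 treated, 111-fold higher (80.7 to 153). Further genes of myeloid surface receptors were among the 12. The C-type lectin gene Clec12a stood at 1.82 and 29.8, and Olr1, the receptor for oxidised LDL, at 0.235 and 11.6. The macrophage markers, with Cd74 among them, summed to 1153 and 1089 as given above, and Lyz2 stood at 880 and 951; the part of macrophages in these values was not tested.

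The others encode surface, matrix and signalling proteins. Has1, a hyaluronan synthase, stood at 0.349 and 20.8, a ratio of 59.6 (44.6 to 79.7). Tnfrsf12a, the receptor of the cytokine TWEAK, stood at 47.7 and 517, a ratio of 10.8 (10.4 to 11.3). Il1rl1 encodes the interleukin-33 receptor ST2, and stood at 13.9 and 158, a ratio of 11.4 (10.9 to 11.9). Tnfsf18, a cytokine of the TNF family, stood at 0.208 and 12, and the gap junction gene Gjb2 at 2.34 and 51.6. Among regulators, Phlda1, a pleckstrin homology-like domain protein, stood at 5.26 and 124, a ratio of 23.6 (21.8 to 25.5). Atoh8, a bHLH factor, stood at 3.93 and 72.0, and Id3, an inhibitor of bHLH factors, at 67.3 and 921. Ccrn4l, the deadenylase-like protein nocturnin, stood at 3.69 and 62.3. All 12 had a junction-adjusted change above 3.

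The named decreases were led by Crip1 (chromosome 12, 114390223 to 114392090), a small LIM domain protein gene, at FPKM 219 and 2.42, 90.3-fold lower (73.6 to 111). Genes of MHC class II antigen presentation followed. H2-Ab1 and H2-Aa, the chains of the class II molecule I-A, stood at 58.7 and 0.055 and at 57.8 and 0.0392. Cd74, the invariant chain that guides class II molecules, stood at 143 and 5.61. Other named decreases came from unlike pathways. Fxyd1, a regulator of the sodium pump, stood at 35.5 and 0.156, and Nckap1, a subunit of the WAVE actin regulatory complex, at 36.2 and 0.917. Adh1, an alcohol dehydrogenase, stood at 77.7 and 3.62, and Bicc1, an RNA-binding protein, at 58.1 and 3.07. Ergic3, a protein of the ER to Golgi compartment, stood at 181 and 11.8. Eif3k, a subunit of an initiation factor, Rpp21, a subunit of RNase P, and Ndfip1, an adaptor of ubiquitin ligases, had changes of -3.95, -3.88 and -4.32. The 12 decreases had junction-adjusted changes from -1.92 for Ergic3 to -5.24 for H2-Aa.

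Class II genes were then read as a whole, in a list chosen after these values were seen. Of 10 listed genes 7 entered, 6 of them lower and 0 higher, and their summed FPKM was 278 untreated and 7.82 treated. H2-DMa and H2-DMb1, chains of the class II peptide loading factor, stood at 9.63 and 1.33 and at 5.73 and 0.404; H2-DMb1 has near-identical copies. Of 9 listed macrophage genes other than class II 8 entered, 1 of them higher and 0 lower. Their median was -0.31 (junction-adjusted 0.73). Lyz2, macrophage lysozyme, stood at 880 and 951, with copies of 36% of its windows. Ctss, the protease cathepsin S, stood at 91.9 and 67.0, and Mrc1, the mannose receptor, at 34.3 and 25.4. Cd68, Emr1 and Ptprc stood at 86.4 and 71.6, at 14.3 and 9.32 and at 4.41 and 3.26. Csf1r, the receptor for macrophage growth factor, stood at 20.5 and 36.5, with another gene over 16.7% of its exonic bases. Cd14, a co-receptor for lipopolysaccharide, stood at 14.8 and 111. The part of macrophage number in the class II values was not tested.

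The genes were then grouped into 88 families by symbol, each with 5 or more genes of the rule. On the authors' scaling 81 families had a median of 0 or below and 7 a median above 0. Relative to the median of all genes 34 lay above and 54 below, and after junction adjustment 39 lay above 0 and 49 at 0 or below. Both relative scales put 24 families above 0 and 37 below. The other families changed side between these scales, glycolysis and the myosins among them. Family values are given as the number higher and lower on the authors' scale, for which the shares over all genes are 6.05% and 28.1%, the median on that scale, and the junction-adjusted median.

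**Figure D4:**
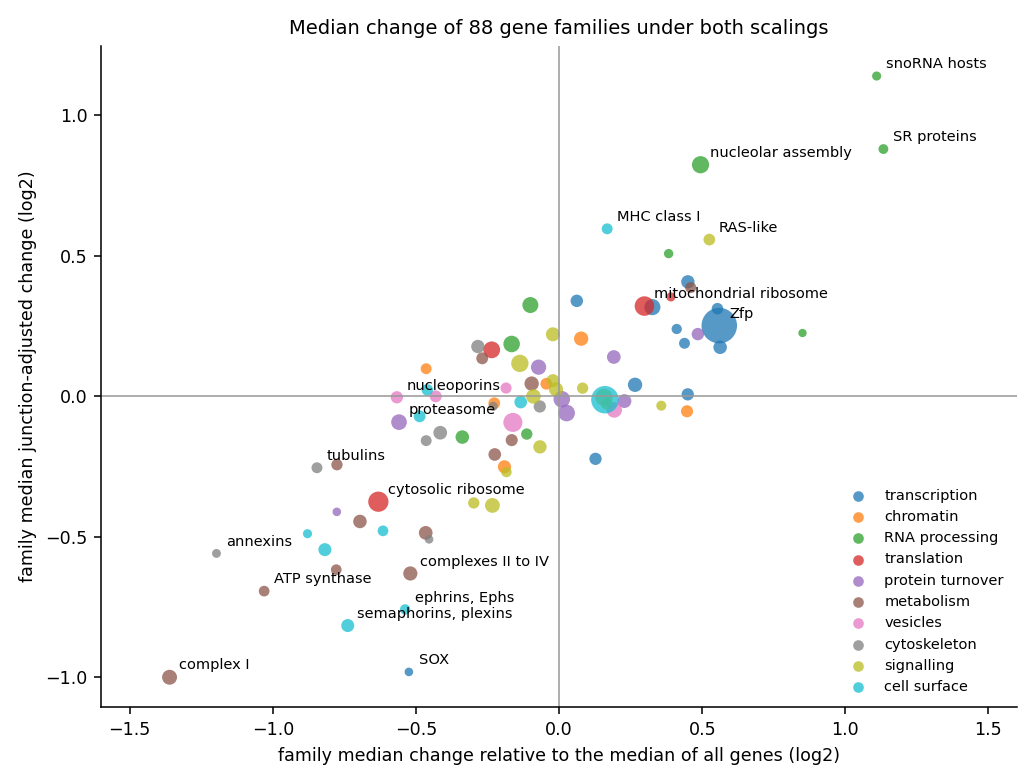
Median change of each of 88 gene families relative to all genes (x axis, log2) and after junction adjustment (y axis, log2); point area goes with the number of genes and colour with the role. Complex I lies lowest at -1.36 and -1.0, the snoRNA hosts and SR proteins lie highest, and nucleoporins and the proteasome lie near 0 on the y axis alone.

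The respiratory chain of mitochondria stood out among the lower families. Complex I, which passes electrons from NADH to ubiquinone, had 32 of 41 genes lower and 1 higher, with a median of -1.88 and a junction-adjusted median of -1.0, so it lay below the median of all genes by both measures. Ndufs7, a subunit with an iron-sulfur centre (chromosome 10, 79712197 to 79719537), stood at FPKM 83.9 and 7.58, 11.1-fold lower (10.2 to 12.1). Ndufa4 stood at 189 and 18.2, or 10.4-fold lower (9.67 to 11.2), with copies of part of its sequence elsewhere. The genes that were not lower included assembly factors, proteins that help to build the complex and are not part of it: Ndufaf4 stood at a change of 1.06 and Ndufaf2 at 0.61, but Ndufaf1 at -0.87 and Ndufaf3 at -1.59. The summed level of the family was FPKM 2881 untreated and 826 treated.

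Complexes II to IV had 18 of 36 genes lower and 1 higher (median -1.04, junction-adjusted -0.63). Their lowest members were Cox7c, at 61.6 and 5.22, and Cox7a2, at 88 and 8.20, small subunits of cytochrome oxidase with partial copies elsewhere. On the other side stood Cox10, an enzyme of haem A synthesis, at 5.81 and 12.5, and Uqcrfs1, the Rieske subunit of complex III, at 53.4 and 87.5. ATP synthase subunits had 11 of 17 genes lower and 0 higher (median -1.55, junction-adjusted -0.69), and 10 of the 17 have copies. Atp5g2, at 47.2 and 0.089, has copies of all its windows and is uncertain. The 7 members without copies or overlap had a median of -1.45.

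Mitochondrial families outside the chain went different ways. Ribosomal proteins of mitochondria had 21 of 76 genes lower and 3 higher (median -0.22, junction-adjusted 0.32), above the median of all genes by both measures. Mrps12 stood at 18.0 and 45.9, while Mrpl52 stood at 109 and 13.6. Protein import genes had 7 of 24 lower and 2 higher (median -0.68, junction-adjusted -0.16), with Timm10, a small chaperone of the inner membrane space, at 17.0 and 35.2. Samm50, which inserts proteins into the outer membrane, stood at 57.3 and 3.67, 15.6-fold lower (14.5 to 16.8). Carriers of the inner membrane had 9 of 37 lower and 2 higher (median -0.61, junction-adjusted 0.05). The increases were Slc25a25, an ATP-magnesium carrier regulated by calcium, at 5.45 and 28.9, and Slc25a28, an iron importer, at 7.33 and 28.0.

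Fatty acid oxidation had 22 of 32 genes lower and 0 higher (median -1.21, junction-adjusted -0.45), with Acadvl, the dehydrogenase for very long chains, at 38.0 and 4.76; another gene overlaps 42.9% of its exonic bases. The citric acid cycle had 12 of 20 lower and 0 higher (median -1.29, junction-adjusted -0.24), with Sdhb at 99.6 and 11.4 and Idh2 at 80.7 and 15.4. Glycolysis had 10 of 23 lower and 1 higher, with a median of -0.79 that turned to 0.14 after junction adjustment. Hk2, a hexokinase (chromosome 6, 82675021 to 82724448), was the gene that was higher, at 2.86 and 19.9, a ratio of 6.97 (6.55 to 7.42). Gapdh and Pgam1 have copies of most of their windows and are uncertain. Glutathione S-transferases had 11 of 17 lower and 0 higher (median -1.30, junction-adjusted -0.62). Zinc transporters and metallothioneins had 3 of 19 higher and 1 lower (median -0.06, junction-adjusted 0.39), with Mt2, a metal-binding protein, at 27.1 and 140 and the zinc exporter gene Slc30a1 at 3.86 and 9.75.

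**Figure D5:**
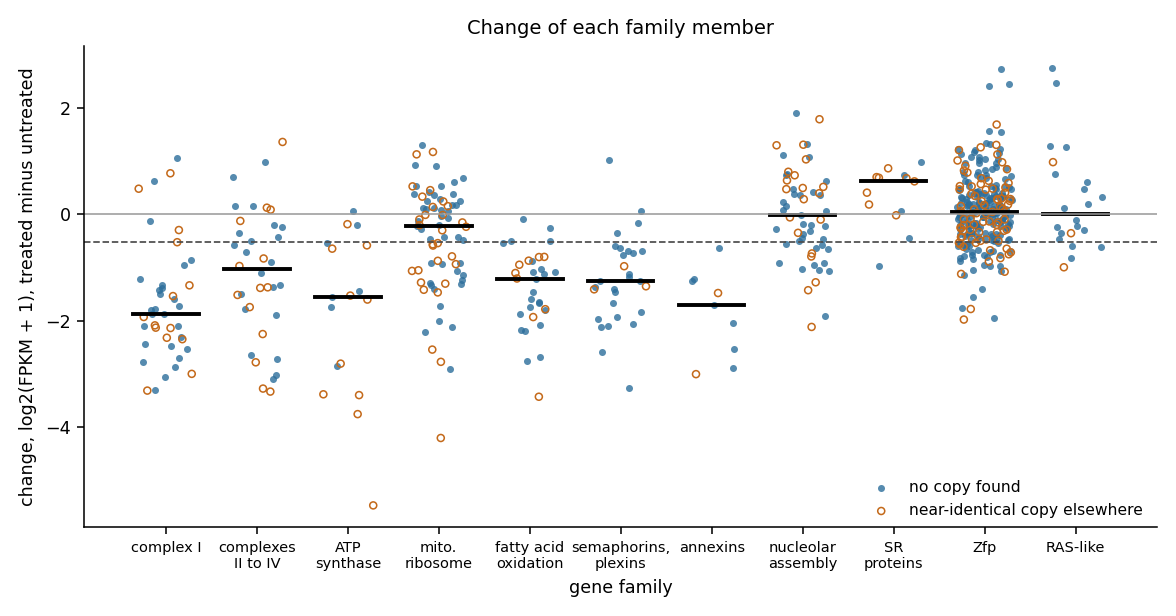
Change of each member of 11 families on the authors' scaling; filled points are genes with no near-identical copy found, open points genes with one, black bars the family medians, and the dashed line the median of all genes, -0.52. The median of complex I lies at -1.88 and that of the mitochondrial ribosome at -0.22, while the medians of SR proteins, Zfp genes and RAS-like genes lie above 0.

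Proteins of nucleolar ribosome assembly had 8 of 57 genes higher and 7 lower (median -0.02, junction-adjusted 0.82), above the median of all genes by both measures. Among the 32 without copies or overlap 4 were higher and 3 lower, with a median of -0.19. Besides Utp3, Mphosph10, a processome protein, stood at 9.61 and 25.3, and Npm1, nucleophosmin, at 70.0 and 243, with copies elsewhere. On the lower side were Utp11l at 36.4 and 7.61 and Rrp9 at 14.3 and 3.07, whose changes of -2.12 and -1.91 were -1.43 and -0.00 after junction adjustment. Cytosolic ribosomal proteins had 43 of 82 lower and 8 higher (median -1.15, junction-adjusted -0.37), but 77 of them have near-identical copies. Rps21 was listed at 1039 and at 0, so this family is uncertain. Initiation factors had 18 of 54 lower and 5 higher (median -0.75, junction-adjusted 0.17), and 28 have copies. Of the 23 without copies or overlap 11 were lower and 0 higher (median -0.92). Single values included Eif3i at 122 and 9.39 and Eef1e1, a scaffold of the synthetase complex counted with the elongation factors, at 13.6 and 36.8.

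Hosts of small nucleolar RNAs, spliced transcripts whose introns hold the snoRNAs, had 4 of 10 genes higher and 2 lower (median 0.59; junction-adjusted 1.14 over the 7 genes that have this value). Only 2 of the 10 are known to be free of copies and overlap, and 1 of these was higher. Snhg5 stood at 27.1 and 61.8 and Snhg8 at 8.59 and 53.6, while Snhg6 stood at a change of -3.87 and Snhg1 was listed at 68.3 and at 0. SR proteins, which guide splice site choice, had 0 of 13 genes higher and 0 lower and a median of 0.62 (junction-adjusted 0.88), the highest of the 88 medians on the authors' scaling. Their 10 genes above 0 included Srsf6, at 57.2 and 95.8, and Srsf4, at 23.7 and 47.7; another gene overlaps 43.3% of the exonic bases of Srsf4. Srsf9 stood at 60.8 and 30.6. Of the 13, 8 have copies, and the 4 without copies or overlap had a median of -0.19. Core proteins of the spliceosome had 20 of 52 lower and 1 higher (median -0.68), turning to 0.19 after junction adjustment. Prpf38b stood at 19.1 and 55.2 and Snrpb at 126 and 22.1. The exosome, CCR4-NOT and decapping genes of RNA decay had 15 of 32 lower and 0 higher (median -0.86, junction-adjusted -0.14). TTP, Regnase and Roquin factors, which mark messages for decay, had 2 of 7 higher and 1 lower (median 0.33, junction-adjusted 0.23). Zfp36, the AU-rich element binding protein TTP, stood at 38.3 and 213 and the RNase gene Zc3h12a at 2.38 and 9.09, while the TTP relative Zfp36l2 stood at 59.3 and 14.6.

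The families of transcription factors other than SOX had medians above that of all genes, and after junction adjustment the SOX factors and nuclear receptors lay below 0. The 270 Zfp genes, mostly C2H2 zinc finger factors, had 24 higher, 8.89%, and 11 lower, 4.07%, with a median of 0.04 (junction-adjusted 0.25). Zfp948 stood at 5.21 and 40.3 and Zfp57, which keeps imprinted loci methylated, at 9.23 and 53.4, while Zfp467 stood at 6.79 and 1.02. ZBTB zinc fingers had 1 of 32 higher and 0 lower (median 0.05, junction-adjusted 0.17). Both families have few junctions per kb, 1.14 and 0.62 at the median against 2.92 over all genes. Mediator subunits had 5 of 31 lower and 2 higher (median -0.07, junction-adjusted 0.41), with Med11 at 12.1 and 35.3 and Med25 at 30.1 and 3.50. RNA polymerase II and its general factors had 14 of 49 lower and 3 higher (median -0.19, junction-adjusted 0.32). Small subunits of the enzyme were its lowest members: Polr2f stood at 79.9 and 7.76, 10.3-fold lower (9.22 to 11.5), and Polr2i, with partial overlap, at 28.1 and 1.31.

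Families of developmental factors were split. Nuclear receptors had 4 of 25 genes higher and 10 lower, with a median of -0.39 (junction-adjusted -0.22). The orphan receptor gene Nr4a3 stood at 0.785 and 14.3, Nr4a2 at 3.34 and 58.7 and Nr4a1 at 58.8 and 205, while the thyroid hormone receptor gene Thra stood at 40.8 and 5.91. Irf1, a factor of interferon responses, stood at 12.5 and 112, a ratio of 9.0 (8.58 to 9.43), Gata2 at 0.516 and 7.85, and Id1 at 11.5 and 120. Forkhead factors had 4 higher and 4 lower of 21 (median 0.04, junction-adjusted 0.31), or 2 and 3 of the 12 without copies or overlap (median -0.24). Foxc2 stood at 1.47 and 7.83 and Foxd3, a neural crest factor, at 11.6 and 1.75. SOX factors had 5 of 8 lower and 0 higher (median -1.04, junction-adjusted -0.98), with few junctions per kb, 0.36. Sox10, the neural crest and Schwann cell factor, stood at 23.4 and 4.31, and Sox9 at 4.15 and 5.46. In a wider list of Schwann cell and melanocyte genes, chosen after these values were seen, 9 of 12 entered, 7 were lower and 0 higher, and the sum went from FPKM 125 to 16.7. Ngfr, the neurotrophin receptor p75, stood at 45.2 and 5.38. The part of this difference in the SOX and forkhead values was not tested.

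Histone deacetylases and sirtuins had 9 of 18 lower and 0 higher (median -0.98), which turned to 0.10 after junction adjustment. Hdac2 stood at 75 and 17.6, with a junction-adjusted change of -1.72. SWI/SNF and CHD remodellers had 10 of 30 lower and 1 higher (median -0.71, junction-adjusted -0.25). The lowest was Chd3, an ATPase of the NuRD complex, at 48.9 and 3.86, 12.7-fold lower (12.2 to 13.2). The gene that was higher, Arid5a, encodes an AT-rich DNA and RNA binding protein and stood at 2.32 and 30.7. Histone genes of the replication-dependent clusters had 7 of 24 higher and 9 lower, and 22 of them have copies.

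Further families of nuclear proteins differed. The ETS, IRF and STAT, T-box, methyltransferase and nonsense-mediated decay families lay above the median of all genes by both measures. Bromodomain and acetyltransferase genes lay below it by both, while histone demethylases and helicases changed side. ETS factors had 2 of 18 genes higher and 2 lower (median -0.08, junction-adjusted 0.19). Sfpi1, the myeloid factor PU.1, stood at 19.1 and 57.0 and Erg, an endothelial factor, at 3.55 and 0.934. IRF and STAT factors had 2 of 15 higher and 3 lower (median -0.11, junction-adjusted 0.24). T-box, GATA and homeobox factors outside the other lists had 3 of 37 higher and 7 lower (median -0.25, junction-adjusted 0.04), with Runx1, a factor of blood and skeletal development, at 12.6 and 39.8. Histone lysine methyltransferases had 2 of 37 higher and 6 lower (median -0.44, junction-adjusted 0.21). Ezh2, the enzyme of Polycomb complex PRC2, stood at 13.7 and 2.19, a change of -2.20 that was -0.59 after junction adjustment. Histone demethylases had 1 of 22 higher and 6 lower (median -0.56, junction-adjusted 0.04), and bromodomain and acetyltransferase genes 0 of 22 higher and 7 lower (median -0.74, junction-adjusted -0.02). DEAD and DEAH box helicases had 1 of 48 higher and 16 lower, with a median of -0.62 that turned to 0.33; Ddx39b, an mRNA export helicase, stood at 140 and 28.0. Genes of nonsense-mediated decay had 0 of 11 higher and 0 lower (median -0.13, junction-adjusted 0.51).

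Ubiquitin families lay close to the median of all genes. Ubiquitin-conjugating enzymes had 4 of 33 genes higher and 4 lower (median -0.33, junction-adjusted 0.14), with Ube2g2, an enzyme of ER-associated degradation, at 36.7 and 84.5. Ubiquitin-specific proteases had 1 of 43 higher and 9 lower (median -0.59, junction-adjusted 0.10), F-box proteins 1 of 52 and 10 (median -0.51, junction-adjusted -0.01), and TRIM proteins 2 of 34 and 5 (median -0.29, junction-adjusted -0.02). Usp36, a nucleolar deubiquitinase, stood at 6.96 and 15.9, and the ubiquitin ligase gene Trim8 at 19.0 and 47.9. In vesicle sorting, ESCRT, retromer and sorting nexin genes had 3 of 72 higher and 29 lower (median -0.68, junction-adjusted -0.09). Vps36, a subunit of ESCRT-II, was among the lowest, at 29.0 and 1.92. The 158 TMEM genes, membrane proteins that share only a naming scheme, had 6 higher and 34 lower (median -0.36, junction-adjusted -0.01).

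Among families of protein turnover and transport, the proteasome, nucleoporins and importins lay below the median of all genes. After junction adjustment these families lay near 0. TRiC subunits lay below by both measures, and serpins and cystatins above by both. The proteasome had 25 of 46 genes lower and 0 higher and a median of -1.08, but a junction-adjusted median of -0.09, with 5 higher and 5 lower on that scale. Psmc3, an ATPase of the 19S particle, stood at 96.0 and 12.4, and Psme3, a proteasome activator, at 41.2 and 54.4. TRiC chaperonin subunits had 6 of 8 lower and 0 higher (median -1.29, junction-adjusted -0.41). Nucleoporins had a median of -1.08 and a junction-adjusted median of -0.00, with 13 of 25 lower and 3 higher. One of those 3, Nupr1, was caught by its symbol and encodes a stress-responsive nuclear protein, not a pore protein. Importins and exportins had 11 of 23 lower and 0 higher (median -0.95, junction-adjusted 0.00). Serpins and cystatins, inhibitors of proteases, had 7 of 26 higher and 5 lower (median -0.03, junction-adjusted 0.22). Among the 15 without copies or overlap 1 was higher and 3 lower, with a median of -0.41. Serpine2, an inhibitor of thrombin and other proteases, stood at 97.1 and 17.5. Serpina3h and Serpina3g, at 9.13 and 158 and at 2.28 and 25.6, share sequence with their paralogs.

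Cytoskeletal families had medians below that of all genes on the authors' scaling. Annexins, which bind membranes in the presence of calcium, had 8 of 9 lower and 0 higher (median -1.71, junction-adjusted -0.56), and their 7.15 junctions per kb put them among the densest families. Anxa6 stood at 204 and 26.6, 7.69-fold lower (7.51 to 7.88). Tubulins had 10 of 18 lower and 0 higher (median -1.36, junction-adjusted -0.25), and 9 have copies. Kinesins had 14 of 33 lower and 0 higher (median -0.93, junction-adjusted -0.13). Myosins had 10 of 31 lower and 1 higher, with a median of -0.80 that turned to 0.18.

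Small GTPases included some of the largest increases. Rnd1, which weakens cell adhesion, stood at 0.352 and 78.9. RAS-like genes had 4 of 22 higher and 0 lower (median 0.01, junction-adjusted 0.56). The higher ones were Rasl11a, at 9.45 and 69.1, Gem, an inhibitor of calcium channels, at 12.8 and 75.4, Rasl11b, at 35.0 and 86.3, and Rem1, at a change of 1.26. Nras stood at -0.30 and Hras1 at -0.62. RAB GTPases of vesicle transport had 3 of 44 higher and 7 lower (median -0.32, junction-adjusted -0.05), with Rab20 at 3.88 and 21.5 and Rab32 at 9.46 and 37.9. Snx22, a sorting nexin gene, stood at 0.247 and 39.8, with another gene over 20.4% of its exonic bases.

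Growth factor pathways held genes of either direction. In the TGF-beta and BMP pathway 8 of 57 were higher and 14 lower (median -0.36, junction-adjusted -0.00). Inhba, an activin chain, stood at 9.58 and 49.7, while Ltbp4 and Ltbp3, which hold latent TGF-beta, stood at 24.3 and 3.85 and at 59.0 and 11.7. In the WNT pathway 3 of 40 were higher and 15 lower (median -0.75, junction-adjusted -0.39). Wnt11 stood at 0.929 and 12.7 and Wnt2 at 0.420 and 2.64. Among the receptors Fzd6 stood at 2.29 and 6.45, Fzd2 at 80.6 and 11.8 and the co-receptor gene Lrp5 at 29.5 and 3.46. Inhibitors of cytokine signalling included Socs2 at 15.2 and 96.2, Socs3 at 14.4 and 79.2 and Cish at 5.45 and 27.6. The family that also takes in the Sprouty and SPRED inhibitors had 4 of 14 higher and 2 lower (median -0.16, junction-adjusted -0.03). Of its 8 members without copies or overlap 2 were higher and 1 lower. MAP kinases and their activators had 12 of 35 lower and 0 higher, and a median of -0.54 that turned to 0.22.

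Guidance receptors, surface proteases, laminins and cadherins had medians below those of all genes by both measures. Semaphorins, plexins and neuropilins had 18 of 29 genes lower and 1 higher (median -1.26, junction-adjusted -0.82). Sema4f stood at 13.9 and 0.550, 25.2-fold lower (22.4 to 28.3), and Sema7a, which signals through integrins, at 6.48 and 14.2. Ephrins and Eph receptors had 9 of 15 lower and 0 higher (median -1.06, junction-adjusted -0.76), with Epha3 at 30.4 and 2.65 and Epha2 at 0.776 and 2.47. ADAM and ADAMTS proteases had 18 of 29 lower and 0 higher (median -1.34, junction-adjusted -0.55); Adamts2, which trims procollagen, stood at 136 and 23.4. Laminins and nidogens of basement membranes had 8 of 10 lower and 0 higher (median -1.40, junction-adjusted -0.49), with Lama4 at 93.6 and 12.3. Cadherins and catenins had 11 of 17 lower and 0 higher (median -1.13, junction-adjusted -0.48). Cdh19, a cadherin of Schwann cell precursors, was their lowest at 12.1 and 0.265. Integrins had 9 of 21 lower and 0 higher, with a median of -0.98 and a junction-adjusted median of 0.02. In MHC class I presentation 2 of 18 were higher and 6 lower (median -0.35, junction-adjusted 0.60); H2-K1 stood at 60.5 and 117 and the sequences of most members are shared.

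In the other surface and signalling families given here the share higher ran from 0% to 7.14%, beside 6.05% over all genes. Protein tyrosine phosphatases had 2 of 28 genes higher and 10 lower (median -0.54, junction-adjusted 0.06). Ptprn, a protein of secretory granules, stood at 4.35 and 18.0 and the receptor gene Ptprs at 64.0 and 7.57. RhoGAP and RhoGEF genes had 1 of 58 higher and 18 lower (median -0.65, junction-adjusted 0.12), with the RAC activator genes Tiam1 at 2.05 and 6.11 and Dock1 at 26.0 and 2.87. In the insulin-like growth factor pathway 0 of 16 were higher and 5 lower (median -0.70, junction-adjusted -0.27); the ligand gene Igf2 stood at 398 and 649. Notch and Hedgehog genes had 0 of 20 higher and 7 lower (median -0.82, junction-adjusted -0.38). Sufu, an inhibitor of Hedgehog signalling, stood at 9.10 and 1.58 and the Notch ligand gene Jag1 at 30.5 and 49.5. Complement genes had 1 of 27 higher and 9 lower (median -0.65, junction-adjusted -0.02; -0.28 over the 16 without copies or overlap). C1qc, a chain of C1q made by macrophages, stood at 130 and 244, and C1rb, a C1r protease, at 35.0 and 1.95. Tetraspanins had 1 of 23 higher and 12 lower (median -1.0, junction-adjusted -0.07; -0.61 over the 18 without copies or overlap), and the 1 was Tspan33, at 0.776 and 6.45.

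Promoters were searched because a TATA box marks genes with sharp, inducible start sites. The box was counted as TATAAA on the strand of the gene, lying within 40 to 15 bases before the most upstream start of the gene's GENCODE vM1 transcripts on mm9, which gave a promoter to 98.6% of the genes. It was found in 4.24% of 708 higher genes, 1.01% of 7815 in between and 0.835% of 3352 lower genes, against 2.26% of all 21579 annotated genes in the tables. Outside the textbook stress list the shares were 3.27%, 0.945% and 0.809%. Of the 137 genes with the box 21.9% were higher and 20.4% lower, and of the 11738 without it 5.78% and 28.3%. Entry needed FPKM 1 in only 1 library. Genes below that untreated could enter only by being higher treated, and genes below it treated only by being lower. All 4 higher genes printed below entered through the treated library alone. These shares depend in part on the entry rule, and a link of the box with the change was not tested. With directions set against the median of all genes the shares with the box were 2.74%, 0.876% and 1.12%, and after junction adjustment 2.58%, 0.910% and 1.28%. On both scales the share of higher genes lay closer to the 2.26% of all annotated genes. The AP-1 motif TGANTCA was sought on either strand within 250 bases before and 50 after the start. It was found in 8.33%, 4.52% and 5.28%, against 6.76% of all annotated genes. With directions set against the median of all genes the shares were 6.25%, 4.61% and 5.68%. After junction adjustment they were 6.59%, 4.54% and 6.21%, so on both scales the higher genes lay below the 6.76%. The cAMP response element TGACGTCA was found in 4.38%, 3.4% and 3.04%, against 2.41%; neither motif contains the other. To show the box on both sides, 6 non-textbook genes without copies or overlap are printed, 4 higher and 2 lower, with the box in capitals and the 60 bases that end at the start in the RefSeq promoter table (GRCm38.p6). Clec4e is at chr6:123289872-123289931 (minus strand), Tnfsf18 at chr1:161494597-161494656 (plus), S100a8 at chr3:90669011-90669070 (plus), Hist1h1b at chr13:21780626-21780685 (minus), Reg1 at chr6:78425923-78425982 (plus) and Emp3 at chr7:45921427-45921486 (minus).
Clec4e: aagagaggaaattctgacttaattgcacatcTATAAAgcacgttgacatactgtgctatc
Tnfsf18: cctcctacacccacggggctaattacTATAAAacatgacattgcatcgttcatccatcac
S100a8: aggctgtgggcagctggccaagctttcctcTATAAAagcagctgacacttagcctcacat
Hist1h1b: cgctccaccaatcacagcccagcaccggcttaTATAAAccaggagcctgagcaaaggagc
Reg1: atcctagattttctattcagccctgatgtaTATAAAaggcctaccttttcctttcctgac
Emp3: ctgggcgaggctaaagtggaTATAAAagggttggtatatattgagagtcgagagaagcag
S100a8, a calcium-binding protein of myeloid cells, stood at FPKM 0.143 and 2.10, and the single-exon linker histone gene Hist1h1b at 0.240 and 2.04. Reg1, a secreted lectin-like protein of regenerating tissue, stood at 194.7 and 27.8, and Emp3, a membrane protein of the PMP22 family, at 192 and 32.3. The box was thus present on both sides, and a match describes these letters only.

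Peaks of the bZIP factors were set beside the directions of change. An ATF4 peak of treated cells lay within 1 kb of the start of 44.4% of higher genes, 52.4% of those in between and 45.5% of lower genes. A CEBPB peak of treated cells did so for 7.06%, 4.50% and 3.61%, and one of untreated cells for 10.0%, 5.81% and 4.89%. The peaks are the authors' calls, 1 library each.

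As a reference, 97 of the 201 textbook stress genes that entered were higher and 13 lower, with a median of 0.91 and a junction-adjusted median of 1.29. Of 1092 olfactory receptor genes listed, 0 entered. Numbered gene models had 83 of 902 higher and 156 lower, with a median of -0.27 and a junction-adjusted median of 0.08.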

How the data were processed

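The RNA values were FPKM with confidence bounds and a status per gene entry, as deposited by the authors. Per the submitters' processing notes, RNA reads were handled with CASAVA 1.8.2 and Bowtie on mm9, and immunoprecipitation reads with CASAVA 1.7, BWA and SAMtools. The sources used here name neither the program behind the FPKM nor the peak caller. Peak lists with a score per peak were used as deposited by the authors, for position only.

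Genes were matched by symbol to GENCODE vM1 (mm9). Fragments were read from the bounds, taken as 2 standard errors, and were whole within 0.05 for 74.5% and 79.3% of the entries with 3 to 200. Copies were sought with minimap2 2.31 in 100-bp windows every 50 bp, with at most 3 mismatches elsewhere. The junction adjustment used 50 bins, set on genes reaching FPKM 5 in a library, and was tested on simulated data. The simulation held a junction effect of the kind the adjustment removes, and placed changes without regard to gene structure. It cannot show whether the adjustment also takes away true changes that go with structure. Centring uses the genes being counted, which itself evens the split. Adding 1 before the log understates changes of low genes.

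Named genes were the largest changes without copies, under 10% overlap and outside the textbook list (12 increases and 12 decreases of multi-exon, 10 and 6 of single-exon genes), the 10 highest levels, and up to 3 increases and 2 decreases in each family. Other genes named in a family were chosen after their values were seen. Members, families and lists were chosen with earlier results of these data known. Python 3.11.15 with pandas 2.3.3 and pysam 0.24.0 was used. Some genes that the naming rule takes are not reported here.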

Additional observations from a re-analysis of the deposited data

How the results depend on the processing

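With 1 library per condition no difference could be checked against replicates, and the whole pattern of change could belong to 1 library. No paired analysis was possible because each condition had 1 RNA library and the result comes from no test. The scaling mattered most. Centred on genes at FPKM 5 or more in both libraries, 1331 genes were higher and 1877 lower. With each library rescaled to the same sum, 1623 were higher and 2349 lower, and after junction adjustment 1471 and 1175. In the rescaled setting the 1 added before the log also weighed less, so its values do not show scaling alone. Without copies and overlaps 465 of 8109 genes were higher, 5.73%, and 2354 lower, 29.0%, close to the shares of 6.05% and 28.1% over all genes.

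The medians in the same order of scalings (centred, rescaled, junction-adjusted) were -0.12, -0.13 and 0.028 for all genes, -0.13, -0.14 and 0.027 for multi-exon genes, -0.16, -0.31 and 0.0061 for genes under FPKM 5, and -0.049, 0.046 and 0.037 for genes at FPKM 100 or more. For single-exon genes the first 2 were 0.48 and 0.56. The median of the 88 family medians, -0.62, became -0.23, -0.22 and -0.011, and -0.38 without a filter on low values. The family median turned its sign in 22 families when centred, in 21 when rescaled and in 32 after junction adjustment.

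A pseudocount of 0.1 gave medians of -0.62 for all, -0.63 for multi-exon and -0.82 for low genes. A minimum of FPKM 5 gave -0.57, -0.58 and -1.10, and 0.26 for single-exon genes. No filter gave -0.013, -0.10 and 0. Leaving out copies and overlaps gave -0.56, -0.57 and -0.59. Classes by the untreated level gave -0.31 for low and -0.95 for high genes, and by the treated level -0.74 and 0.13. The cause of these differences was not tested. Keeping all statuses, or protein-coding genes alone, changed none of these counts and medians by as much, though with coding genes alone 1 family median of 87 turned its sign.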
